A study of Mus musculus with 37 samples.

Results

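CTCF loops that open and close inside the body of a single long gene were taken from a CTCF ChIA-PET map of mouse hippocampal excitatory neurons. ChIA-PET joins DNA ends held together at a bound protein, and each sequenced pair of ends, a paired-end tag or PET, counts 1 contact between 2 anchor regions. A loop was kept when its anchor midpoints lay 25 to 500 kb apart, both anchors lay fully inside the record of the same protein-coding GENCODE M21 gene, and neither anchor came within 2.5 kb of the 5′ end of a protein-coding gene. This gave 1202 of the 27786 loops, or 5.85% of the 20556 loops of 25 to 500 kb. They lay on 20 chromosomes, in 478 host genes of 21951 protein-coding genes. At the edges of the rule, the shortest loop kept spanned 25003 bp and the longest left out below it 24993.5 bp, while the longest kept spanned 494262 bp and the next one above the limit 509120 bp. The anchor closest to a gene start among the loops kept was 2569 bp away, and the farthest among those left out 2420 bp away.

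CTCF is a zinc-finger protein that binds a directional DNA motif and halts cohesin, the ring complex that extrudes chromatin loops. Loops form most often between sites whose motifs point at each other, which is called the convergent arrangement. Sites between distant domains insulate neighbouring genes, whereas sites within gene bodies are known to bear on elongation, exon choice and the use of internal promoters. Kdm1a (LSD1) is a histone demethylase that removes methyl groups from H3K4.

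The loops came from 1 ChIA-PET library, made from sorted nuclei of male mice given tamoxifen that carried Camk2a-creERT2 and the nuclear tag CAG-Sun1/sfGFP and that are labelled WT. Camk2a drives the recombinase in forebrain excitatory neurons, so the map describes those neurons only and has no replicate and no Kdm1a-ifKO counterpart. The purity of the sort could not be checked from loop calls. Host expression came from poly-A RNA of the whole hippocampus of 3 control and 3 Kdm1a-ifKO males on the C57BL/6J background. Kdm1a-ifKO mice combined Camk2a-creERT2 with Kdm1a f/f, controls were littermates without the recombinase, and both were given tamoxifen as adults. In this bulk tissue, fewer cells of a type and less RNA per cell cannot be told apart. The 6 RNA libraries held 18985542 to 19469947 counts.

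Kdm1a, the targeted gene, is no host of such a loop. Its level was 79.4, 81.0 and 79.5 CPM in controls and 39.2, 36.8 and 38.4 CPM in Kdm1a-ifKO, a log2FC of -1.07 ± 0.0559 (SE, n = 3 per genotype, adjusted p = 6.24e-08, edgeR's quasi-likelihood test). The groups did not overlap, and the two-sided exact permutation p was 0.100, the smallest that 3 against 3 allows. Glutamatergic markers reached 7298 to 7721 CPM summed over the 10 listed in controls, and 7119 to 7879 CPM in Kdm1a-ifKO. Of these 10, 3 fell at an adjusted p under 0.05 (edgeR), beside 2.82% of all tested genes.

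Some records made a gene look longer than a gene usually is. Gm20388, a read-through record of 4.43 Mb on the plus strand of chromosome 8 (chr8:119910841-124345722), contained 71 other protein-coding genes and held 109 of the loops, among them the loop with most PETs. The record of Fgfr2, a fibroblast growth factor receptor, ran over 2.96 Mb of chromosome 7, contained 29 other genes and held 23 loops. Of the host records, 5 contained 5 or more other protein-coding genes whole, and 117 loops had no other host. Without those records 1085 loops in 473 hosts were left, with the same median of 5 PETs. In 134 of the 1202 loops another whole protein-coding gene lay between the anchors, and 51 of these are among the 1085. Inside 2 protein-coding genes at once lay 37 loops. All counts below use the full set unless these wide records are named.

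The DNA under the strongest loops was examined first, since motif direction played no part in the choice of the loops. The 12-base CTCF core motif was searched on both strands of every anchor in GRCm38.p6, whose primary chromosomes have the mm10 coordinates of the loops. The 5 loops with most PETs that had a motif in 1 direction at each anchor and a host outside the wide records are shown with Fhad1, the host with a genotype difference that had such a loop. Each line gives the 60 bases around the site on the strand of its motif, 5′ to 3′, with the 12-base core in capitals, and upstream means the lower coordinate.
Camta1 upstream anchor, chr4:151073527-151073586, plus strand: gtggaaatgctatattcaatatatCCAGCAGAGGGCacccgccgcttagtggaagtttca
Camta1 downstream anchor, chr4:151141697-151141756, minus strand: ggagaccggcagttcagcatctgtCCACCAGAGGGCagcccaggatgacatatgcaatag
Coro7 upstream anchor, chr16:4632236-4632295, plus strand: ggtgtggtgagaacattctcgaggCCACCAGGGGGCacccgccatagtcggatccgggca
Coro7 downstream anchor, chr16:4667345-4667404, minus strand: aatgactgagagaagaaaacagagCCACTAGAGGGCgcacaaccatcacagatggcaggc
Tub upstream anchor, chr7:108967140-108967199, plus strand: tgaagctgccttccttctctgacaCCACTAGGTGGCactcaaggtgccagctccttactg
Tub downstream anchor, chr7:109021597-109021656, minus strand: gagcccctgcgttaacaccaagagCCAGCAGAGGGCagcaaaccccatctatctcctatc
Kcnip1 upstream anchor, chr11:33725771-33725830, plus strand: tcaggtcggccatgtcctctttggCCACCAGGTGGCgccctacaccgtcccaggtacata
Kcnip1 downstream anchor, chr11:33917741-33917800, minus strand: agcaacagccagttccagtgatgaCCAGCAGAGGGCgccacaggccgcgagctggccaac
Pdzd2 upstream anchor, chr15:12371293-12371352, plus strand: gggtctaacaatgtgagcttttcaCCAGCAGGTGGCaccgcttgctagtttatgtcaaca
Pdzd2 downstream anchor, chr15:12578401-12578460, plus strand: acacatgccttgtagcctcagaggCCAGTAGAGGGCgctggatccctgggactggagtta
Fhad1 upstream anchor, chr4:141976292-141976351, plus strand: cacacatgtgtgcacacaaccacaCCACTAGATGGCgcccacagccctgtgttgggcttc
Fhad1 downstream anchor, chr4:142005509-142005568, plus strand: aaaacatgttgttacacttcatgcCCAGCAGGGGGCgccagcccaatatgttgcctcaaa

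The pairs in Camta1, Coro7, Tub and Kcnip1 were convergent, with a plus-strand core in the upstream anchor and a minus-strand core in the downstream anchor. In Pdzd2 and Fhad1 both cores lay on the plus strand, the tandem arrangement. Against the transcript with the longest coding sequence, the Camta1 sites lay in introns 22 and 9 of a 25-exon gene, those of Pdzd2 in introns 20 and 1 of 24 exons, and those of Fhad1 in introns 6 and 2 of 33 exons. The upstream site of Coro7 lay in exon 18 of 28, the downstream site in intron 6. In Tub and Kcnip1, a site lay before the first exon of that transcript and the other in intron 3 or intron 1. These 6 loops carried 123, 99, 69, 60, 77 and 3 PETs in Camta1, Coro7, Tub, Kcnip1, Pdzd2 and Fhad1.

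Across all loops, 504 of 2404 anchors (20.97%) held a core motif, beside 28 of 2404 windows of the same lengths placed in the middle of the loops (1.165%). Loop calling required a CTCF peak at both anchors and none in the windows, so more motifs in anchors follow in part from it. Overlapping anchors count more than once here, and they merge to 1563 regions. The other loops of 25 to 500 kb had it in 8319 of 38708 anchors (21.49%). A motif in 1 direction at each anchor was found in 46 loops. Of these, 33 were convergent, 6 pointed forward and 7 reverse at both anchors, and none was divergent, which makes 71.7% convergent (exact 95% binomial interval 56.5 to 84.0%, counting error only). Among the other loops 682 of 987 were convergent (69.1%, interval 66.1 to 72.0%), and the difference was not tested, since loops share anchors. Taken anchor by anchor, 196 of 243 upstream anchors with motifs in 1 direction pointed forward (80.7%), and 203 of 251 downstream anchors pointed reverse (80.9%). In the mid-loop windows the same counts were 4 of 10 and 9 of 18.

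**Figure D1:**
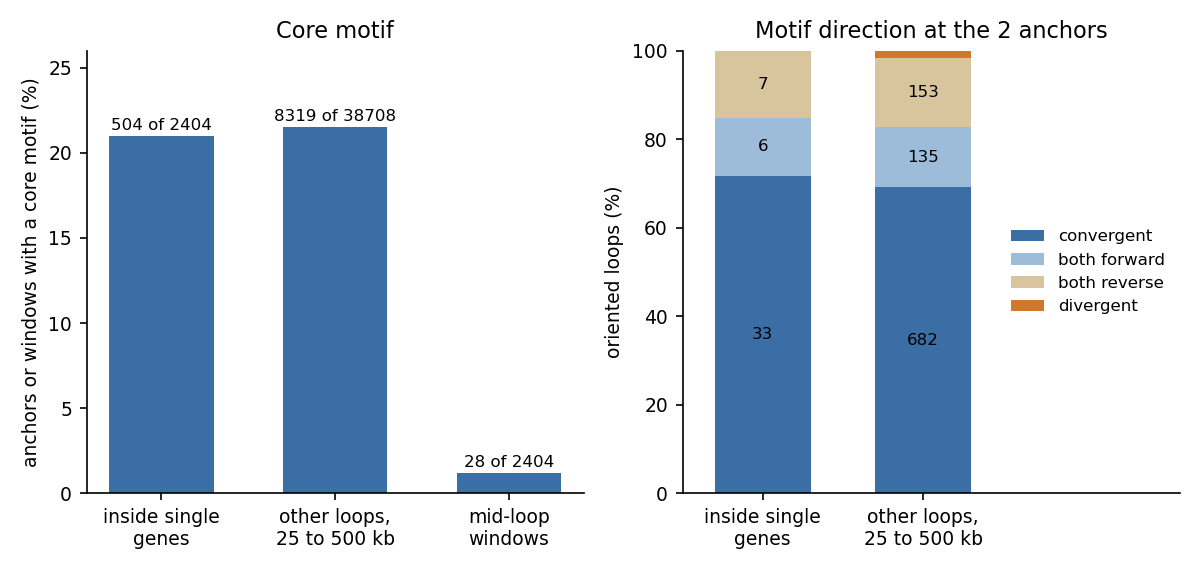
Left, share of anchors, or of same-length windows in the middle of the loops, with a CTCF core motif (%), with counts above the bars. Right, motif direction in loops with motifs in 1 direction at each anchor (% of such loops, counts inside the bars). The loops inside single genes stand at 20.97% of anchors and 33 convergent of 46, and the windows at 1.165%.

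Motif content differed with the strength of the loop. Loops with a core motif at neither anchor (748 loops) had a median of 4 PETs, those with a motif at 1 anchor (404) a median of 5, and those with motifs at both (50) a median of 10. Their anchors also differed in length, with a median of 2.53, 2.96 and 4.74 kb over both anchors, and the part of anchor length in these medians was not tested. Of the loops with at least 10 PETs 21 of 24 were convergent (87.5%), and of those with 3 PETs 4 of 7. When 1 mismatch was allowed, 349 loops could be oriented and 194 were convergent (55.6%), beside 3854 of 6138 other loops (62.8%) and 9 of 58 window pairs (15.5%).

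Most loops had few PETs. The median was 5 (quartiles 3 and 9), 396 loops (32.9%) stood at the minimum of 3 PETs that the deposited file holds, 286 (23.8%) reached 10 and 35 (2.91%) reached 50. The other loops of 25 to 500 kb had a median of 5 (quartiles 3 and 10), with 26.3% at 10 or more and 4.27% at 50 or more. Spans inside single genes had a median of 71.8 kb (quartiles 39.8 and 142 kb) beside 128 kb for the other loops, as the rule bounds a span by the host. At like spans the medians lay close together. From 25 to 50 kb they were 4 PETs for 445 loops inside genes and 5 for 2910 others, and from 200 to 500 kb 5 for 195 and 5 for 5942. Over the 1202 loops, span and PETs had a Spearman rho of 0.07 and a Pearson r of 0.07 on log10 values, given as a description because loops of a gene share anchors and the library.

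**Figure D2:**
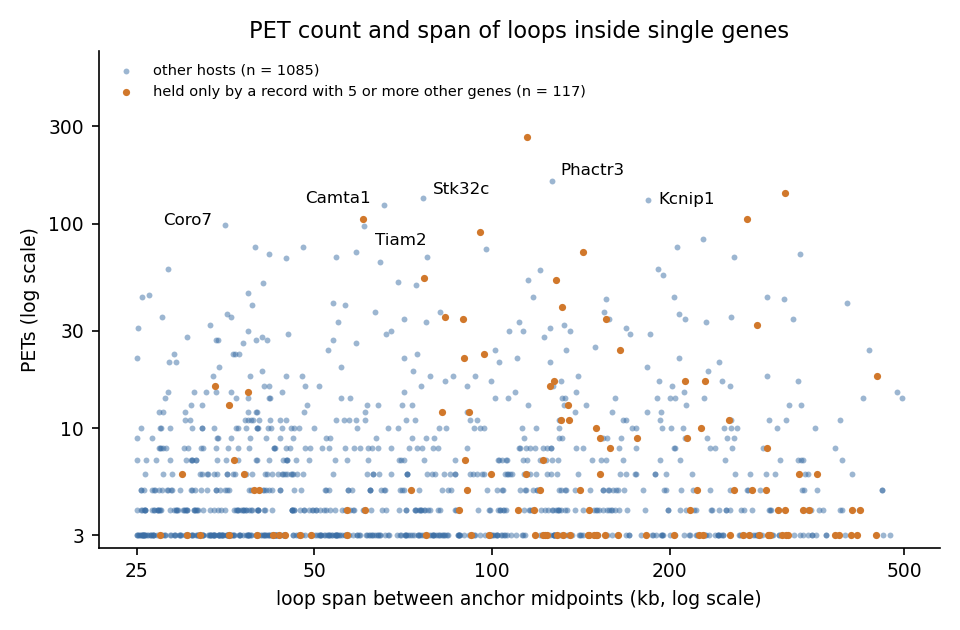
PETs (log scale) against loop span in kb (log scale), 1 point per loop. Orange points are the 117 loops held only by a record with 5 or more other genes, and the 6 strongest other loops are named, from Phactr3 at 162 PETs to Tiam2 at 97 PETs.

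With its exact 95% Poisson interval for counting error only, the strongest of all had 264 PETs (233 to 298) over 115 kb in the Gm20388 record, in a region that contains another gene between the anchors. In Phactr3, a phosphatase and actin regulator, 162 PETs (138 to 189) joined chr2:178131471-178146210 to chr2:178261223-178269418, 126 kb apart and 57.6% of the gene body. In Stk32c, a serine/threonine kinase, 133 PETs (111 to 158) joined anchors 76.3 kb apart. In Kcnip1, which binds A-type potassium channels, 130 PETs (109 to 154) spanned 184 kb, and a second loop beside it had 60 PETs. These 3 genes had 3, 2 and 4 loops each, so that nearly all of their PETs lay in 1 or 2 contacts.

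Camta1, a calmodulin-binding transcription activator, followed with 123 PETs (102 to 147) over 65.7 kb, between chr4:151070520-151080814 and chr4:151137846-151144902, with 1 other protein-coding gene between the anchors. In Coro7, a coronin of the Golgi, 99 PETs (80.5 to 121) spanned 35.3 kb again with 1 other gene between the anchors. Tiam2, an activator of the GTPase Rac, held a loop of 97 PETs (78.7 to 118) over 60.7 kb. The Fgfr2 record held a loop of 141 PETs (119 to 166) with 2 other genes between its anchors, and the Gm20388 record 2 loops of 105 PETs each. Neighbours in this order, from Phactr3 to Tiam2, had overlapping intervals and are not separated by counting error.

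None of the hosts of these strongest loops passed the test between genotypes. Phactr3 stood at 126, 120 and 127 CPM in controls and 127, 128 and 131 CPM in Kdm1a-ifKO (log2FC 0.05 ± 0.0498, adjusted p = 0.567, edgeR). Stk32c stood at 90.0, 88.9 and 77.3 against 99.2, 92.2 and 94.2 CPM (log2FC 0.16 ± 0.0645, adjusted p = 0.155). Kcnip1 stood at 19.7, 21.2 and 18.6 against 18.2, 17.2 and 17.4 CPM (log2FC -0.17 ± 0.0804, adjusted p = 0.207). In these 3 genes the libraries of the genotypes lay apart, in Phactr3 by less than the rounding of the values given, and the differences missed the threshold. The share of all tested genes that separate in this way is not given here, so no weight rests on it. Camta1, Coro7, Tiam2 and Fgfr2 had log2FC of 0.02, 0.05, -0.02 and 0.10, with adjusted p of 0.884, 0.672, 0.885 and 0.319. The libraries of Fgfr2 also lay apart, at 57.2, 55.5 and 56.6 CPM in controls and 58.1, 62.6 and 60.3 CPM in Kdm1a-ifKO. With the correction for gene body length Fgfr2 passed (0.00111), with its length taken from the wide record. DESeq2 without that correction gave Fgfr2 an adjusted p of 0.567. No edgeR fit with a library left out called it, with adjusted p up to 0.593. Gm20388 shares all its exonic bases with other genes and was listed at 0 in every library.

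The number of loops per host was uneven. Of the 478 hosts, 246 (51.5%) had 1 loop and 42 had 5 or more. Outside the wide records, body length and number of loops had a Spearman rho of 0.21 over hosts. Loops were found in 111 of 2515 protein-coding genes of 50 to 100 kb (4.41%), 136 of 1494 of 100 to 200 kb (9.10%), 155 of 768 of 200 to 500 kb (20.2%) and 70 of 230 longer ones (30.4%). Longer genes leave more room for loops, so this order follows in part from the rule. The median host body was 188 kb, beside 17.4 kb over all protein-coding genes.

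Sfi1, which encodes a centrin-binding centrosomal protein, was the densest host. Its 61.6-kb body on chromosome 11 held 25 loops of 25.5 to 45.5 kb with 3 to 16 PETs, and 17 of them ended in the same 8.06-kb region (chr11:3132229-3140284) and 15 in another of 8.24 kb (chr11:3172127-3180365). Whether reads map uniquely to these regions was not examined, so the count may not reflect real loop density. Camta1 held 24 loops with 297 PETs, Gse1 21 with 176, 2900026A02Rik 19 with 210, Shank2, a postsynaptic scaffold protein, 19 with 123, and Nav2, a microtubule-binding neuron navigator, 18 with 156. Ank3, which encodes ankyrin-G of the axon initial segment, held 14 with 137 and Asic2, an acid-sensing ion channel, 13 with 90. All 14 loops of Ank3 spanned at least 82.1 kb and the widest reached 391 kb, whereas those of 2900026A02Rik ranged from 26.7 to 80.1 kb. The same anchors recurred. After merging overlapping anchors 1563 regions were left, of which 1110 (71.0%) served 1 loop and 42 served 5 or more.

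**Figure D3:**
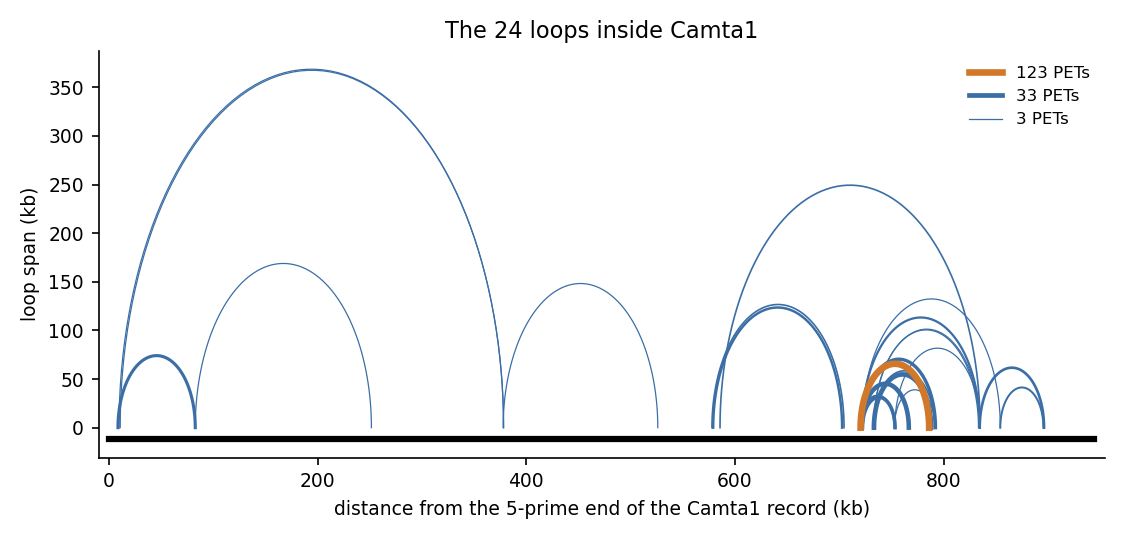
The 24 loops inside Camta1 as arcs over the distance from the 5′ end of the gene record in kb (x axis), with the loop span in kb as arc height (y axis) and the line width growing with the logarithm of the PETs. The black bar is the gene record. The loop of 123 PETs is orange, and most loops crowd into the stretch around it near the 3′ end.

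None of these loop-rich hosts passed the test between genotypes either. Ank3 stood at 383, 370 and 488 CPM in controls and 363, 362 and 368 CPM in Kdm1a-ifKO (log2FC -0.18 ± 0.0966, adjusted p = 0.293, edgeR), with 1 control library far above the other two. Asic2 stood at 66.5, 61.0 and 62.0 against 70.9, 69.2 and 69.3 CPM (log2FC 0.14 ± 0.0561, adjusted p = 0.132). Its groups did not overlap, for which no share of all genes is given. After correction for gene body length the adjusted p was 0.00334 (edgeR). It was 0.270 with DESeq2 and 0.215 with the replicate block. No fit with a library left out called Asic2, with adjusted p up to 0.369. Shank2, Nav2, Sfi1, Gse1 and 2900026A02Rik had log2FC of 0.04, 0.05, 0.04, 0.17 and 0.16, with adjusted p of 0.689, 0.657, 0.808, 0.360 and 0.138. Gse1 shares 27.9% of its exonic bases with other genes, so its counts are less certain.

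Within their hosts the anchors lay mostly in introns. Of 2404 anchors 1793 (74.6%) overlapped no exon of any transcript of the host, and 474 (19.7%) overlapped a coding exon. In 204 loops (17.0%) both midpoints lay in the same intron of the transcript with the longest coding sequence, 143 of them in the first intron. These counts include the Gm20388 read-through record, the only host of 88 loops. Its loops of 264 and 105 PETs had both midpoints in its intron 1. The counts without that record are not given here, so they do not describe ordinary genes alone. In 896 loops (74.5%) at least 1 whole exon of that transcript lay between the midpoints, with a median of 6 and at most 63. Outside the wide records a loop covered a median of 35.8% of the host body (quartiles 22.0 and 55.2%). Of the 2170 anchors there, 649 (29.9%) lay in the first of 3 equal stretches of the body in the direction of transcription, 670 (30.9%) in the middle and 851 (39.2%) in the last. The rule bars anchors close to the gene start, which takes from the first stretch.

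Some anchors lay near annotated internal transcript starts, whose use was not examined and for which no background share is given. In 253 of the 1202 loops, in 127 hosts, an anchor lay within 2.5 kb of a protein-coding transcript start of the host other than the 5′ end of its record, and in 14 both did. These loops had a median of 5 PETs, as did the rest. In 512 loops (42.6%) such a start lay between the anchors. Summed over the loops of a host with an anchor at such a start, the PETs were highest in Camta1 (195), Phactr3 (162), Stk32c (133), Tub (119), Rap1gap (107) and Abr (88). In Tub, the founding gene of the tubby-like protein family, loops with 69 and 28 PETs ended at internal starts, and the gene stood at 460, 465 and 467 CPM in controls and 494, 448 and 486 CPM in Kdm1a-ifKO. Rap1gap, an inactivator of the GTPase Rap1, had 4 loops, the strongest of 77 PETs (60.8 to 96.2) over 47.8 kb. All 10 loops of Abr had an anchor near an internal start, with at most 22 PETs. The adjusted p of Tub, Rap1gap and Abr between genotypes was 0.706, 0.127 and 0.950 (edgeR).

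The longest loops had modest support. In Ptprm, a receptor tyrosine phosphatase, 14 PETs (7.65 to 23.5) joined introns 31 and 2 of a 33-exon gene over 494 kb. In Iqschfp, a read-through record with Schip1, 15 PETs (8.40 to 24.7) spanned 486 kb, and in Schip1 itself 3 PETs (0.619 to 8.77) spanned 472 kb. Ptprm and Schip1 had log2FC of 0.05 and 0.00 (adjusted p 0.750 and 0.996, edgeR), and 39.1% of the exonic bases of Schip1 are shared with other genes, so its counts are less certain. Iqschfp shares all exonic bases with other genes and was listed at 0 in every library.

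The hosts covered several gene groups of neurons, without a test of enrichment. Over all protein-coding genes of at least 100 kb, 361 of 2492 (14.5%) were hosts. Within this class the share went from 9.10% at 100 to 200 kb to 30.4% above 500 kb. The lists were not matched to it in length, and the part of length in their shares was not tested. Among listed genes of that length, 24 of 60 cytoskeletal, scaffold and release genes were hosts (40.0%), 22 of 76 signalling enzymes (28.9%), 13 of 53 ion channel genes (24.5%) and 16 of 71 synaptic adhesion genes (22.5%). Hosts were counted by gene record, and Arhgap26 stands under more than a single record among the signalling hosts of any length. Axon guidance genes (5 of 32, 15.6%), transcription factors and chromatin regulators (12 of 79, 15.2%) and RNA-binding protein genes (3 of 19, 15.8%) lay close to the share of all long genes. None of 25 long glutamate and GABA receptor genes was a host, and 2 of 22 genes of common fragile sites were, Auts2 and Wwox. Among the ion channel hosts, the L-type calcium channel genes Cacna1c and Cacna1d held 3 and 2 loops and the P/Q-type gene Cacna1a 6. Among the adhesion hosts, Kirrel3 held 6 loops. Rbfox3, the splicing factor known as NeuN, held 11 loops with 88 PETs, and the phosphodiesterase gene Pde4d and the exchange factor gene Kalrn held 10 each.

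Host genes were active in the hippocampus over a wide range. Of the 478 hosts 473 were in the count table, 453 passed the filter on low counts, and 20 did not, 4 of which had 0 counts in all libraries. Values per length (TPM) are used to set genes side by side. The median control level of the tested hosts was 26.4 TPM beside 21.7 TPM over tested protein-coding genes, and 333 hosts (73.5%) reached 10 TPM beside 68.3%. The highest was Mbp, the myelin basic protein gene of oligodendrocytes, at 1110 ± 18.2 TPM (SD, n = 3). Its 3 loops, with up to 77 PETs, came like the rest from nuclei sorted as neuronal. Cyfip2, an actin regulator of the WAVE complex, followed at 649 ± 5.37 TPM, and Prkar1b, a regulatory subunit of protein kinase A, at 641 ± 26.5 TPM, which do not differ beyond their spread. At the lower end stood Ttn (0.103 ± 0.0323 TPM), Dnah8 (0.152 ± 0.0370 TPM) and Lmntd1 (0.253 ± 0.0393 TPM). PETs summed per host and control TPM had a Spearman rho of -0.01 over the 453 hosts, a description across genes that share the libraries. None of these 6 genes passed the test between genotypes, with adjusted p of 0.174 to 0.581.

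The comparison of genotypes asked whether hosts differed when Kdm1a was lost. Of 453 tested hosts 35 rose (7.73%) and 10 fell (2.21%) at an adjusted p under 0.05. Over all 16799 tested genes 6.04% rose and 2.82% fell, and over 14428 tested protein-coding genes 6.73% rose and 3.15% fell, so both shares lay near the background. The median log2FC was 0.01 over hosts and within 0.003 of 0 over all tested genes. Without Kdm1a-ifKO replicate 1 the counts were 18 higher and 1 lower, without Kdm1a-ifKO replicate 3 22 and 2, and without control replicate 2 22 and 14. With upper-quartile scaling 44 rose and 5 fell, and with the correction for gene body length 53 and 0. Of the 45 calls, 18 were made in each of the 6 fits that left out 1 library.

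The counts differed with gene length. Of 110 tested hosts under 100 kb, 14 rose (12.7%) and 0 fell, with a median log2FC of 0.06. Of 12051 other tested protein-coding genes under 100 kb, 7.14% rose and 2.57% fell (median 0.01). The 2 sets were not alike in length, since the shortest host had 32.2 kb and the median protein-coding gene 17.4 kb. Their median control levels were 35.6 and 22.4 TPM, and the part of length and level was not tested. Of the 110 hosts, edgeR gave 6 a negative log2FC with an unadjusted p under 0.05, and DESeq2 called 1 lower. Of 343 tested hosts of at least 100 kb, 21 rose (6.12%) and 10 fell (2.92%), with a median log2FC of -0.01. Of 1924 protein-coding genes of that length without such a loop, 3.95% rose and 6.96% fell, with a median of -0.08. From 100 to 200 kb the medians were 0.03 for 129 hosts and -0.05 for 1208 others, from 200 to 500 kb -0.03 for 149 and -0.09 for 569, and above 500 kb -0.08 for 65 and -0.20 for 147. Control levels differed as well, with medians of 23.8 TPM in the long hosts and 16.7 TPM in the long genes without a loop. The part of expression level in these medians was not tested.

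The 2 hosts that rose most encode collagen chains. Col18a1, the collagen XVIII chain from which endostatin is cut, rose from 4.70, 6.19 and 4.83 CPM to 14.8, 17.8 and 18.0 CPM (log2FC 1.69 ± 0.129, adjusted p = 2.14e-06, edgeR). Col5a1, a chain of fibrillar collagen V, rose from 38.9, 39.3 and 30.7 CPM to 101, 113 and 96.7 CPM (log2FC 1.51 ± 0.0968, adjusted p = 7.06e-06). In both genes, chosen by the test in these same libraries, every Kdm1a-ifKO library lay far above every control library. Their loops were weak. Col18a1 held loops of 7 and 3 PETs, 48.9 and 47.0 kb wide, and Col5a1 loops of 11 (5.49 to 19.7) and 5 PETs, 43.8 and 47.5 kb wide, from intron 2 to introns 19 and 23 of a 66-exon gene. Hmcn2, which encodes the matrix protein hemicentin, rose from 1.51, 1.57 and 0.966 CPM to 3.18, 3.09 and 2.15 CPM (log2FC 1.05 ± 0.246, adjusted p = 0.0181), and its call was lost without Kdm1a-ifKO replicate 1 (adjusted p = 0.0749) or control replicate 3 (0.0532), in a range from 5.73e-04 to 0.0749 over all alternatives.

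The next largest rises were in hosts with very different known roles. Nek10, a kinase of ciliated cells, rose from 0.940, 0.891 and 1.40 CPM to 2.47, 3.30 and 2.46 CPM (log2FC 1.35 ± 0.245, adjusted p = 0.00386, edgeR) and held 3 loops, the strongest of 27 PETs (17.8 to 39.3) over 41.5 kb. Myo1h, a class I myosin, rose by a log2FC of 1.22 ± 0.175 (adjusted p = 6.71e-04) and held 5 loops of 5 to 8 PETs. Each of these loops had an anchor at an internal start, and 25.8% of the exonic bases of Myo1h are shared with another gene. Ano2, a calcium-activated chloride channel, stood at 2.61, 2.25 and 1.61 CPM against 3.90, 3.30 and 5.18 CPM (log2FC 0.93 ± 0.224, adjusted p = 0.0208). Its call was lost without Kdm1a-ifKO replicate 1 (0.0559), Kdm1a-ifKO replicate 3 (0.100) or control replicate 3 (0.0580), with 2.24e-04 to 0.100 as the range over all alternatives. Fhad1, a protein with a forkhead-associated domain, rose from 7.21, 6.82 and 6.66 CPM to 12.9, 11.1 and 13.5 CPM (log2FC 0.86 ± 0.114, adjusted p = 3.52e-04), and its tandem pair of motifs is shown above. Mei1, a gene of meiotic recombination, had a log2FC of 0.87 ± 0.250 (adjusted p = 0.0476), and its call was kept in 1 of the 6 fits that left out a library, with adjusted p up to 0.175.

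Phf21b and its paralogue Phf21a, also a host, encode PHD finger proteins, and Phf21a is a known subunit of Kdm1a-containing repressor complexes. Phf21b rose from 10.9, 9.44 and 9.98 CPM to 16.4, 16.5 and 17.7 CPM (log2FC 0.74 ± 0.0926, adjusted p = 2.00e-04, edgeR) and held 1 loop of 3 PETs over 26.6 kb. Phf21a had a log2FC of 0.24 and 1 loop of 6 PETs, and lost its call without Kdm1a-ifKO replicate 1 (0.0726), Kdm1a-ifKO replicate 3 (0.0908) or control replicate 2 (0.0819), with 0.00273 to 0.0908 as the range over all alternatives. It was named after its values were seen. Pear1, a receptor of platelets and endothelium, rose by 0.72 ± 0.124 (adjusted p = 0.00257) and held the strongest loop among the risen hosts after Slc39a11, 68 PETs (52.8 to 86.2) over 44.8 kb inside intron 1, with 1 other gene between the anchors. Arhgap25 and Arhgap27, both GTPase-activating proteins, rose by 0.68 and 0.66 (adjusted p 0.0111 and 7.60e-04), with loops of 3 and 22 PETs, and Arhgap27 shares 23.1% of its exonic bases with other genes. Epb41l4b, a FERM-domain protein and the only host on a list that rose, had a log2FC of 0.35 ± 0.0567 (adjusted p = 0.00185) and 1 loop of 4 PETs.

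**Figure D4:**
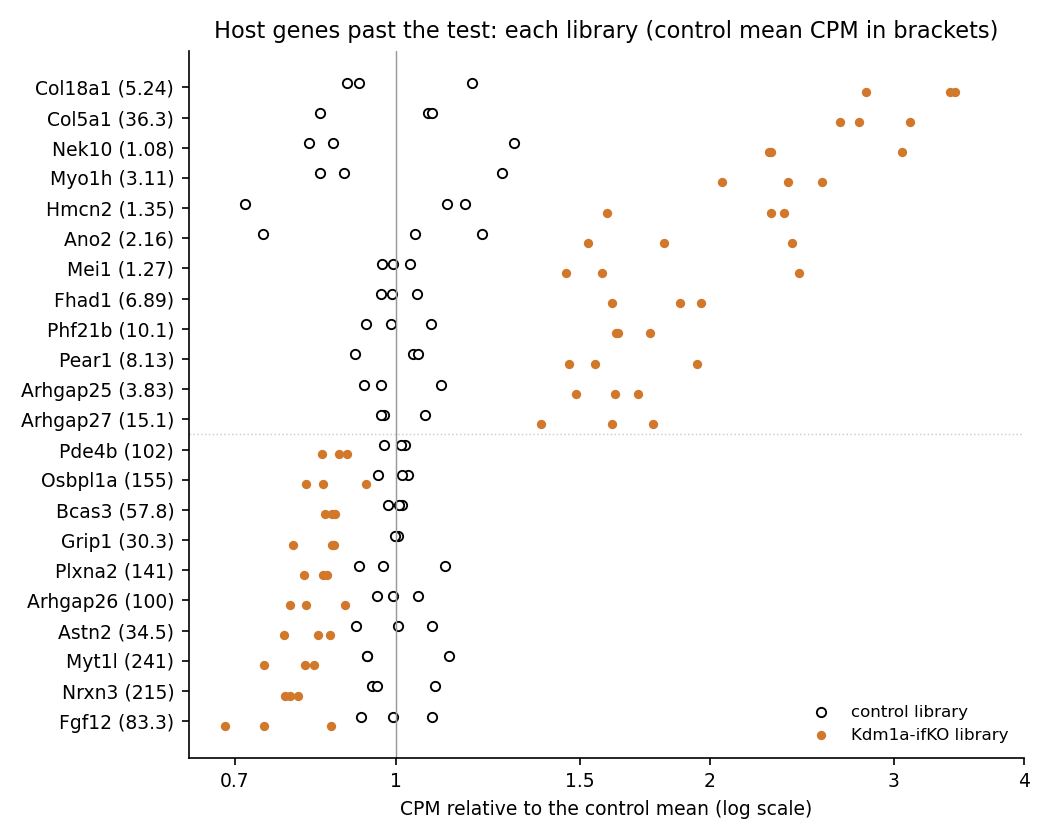
CPM of each library divided by the control mean of the gene (x axis, log scale; control mean CPM in brackets), for the 12 hosts with the largest rise and the 10 that fell. Open circles are control libraries and orange points Kdm1a-ifKO libraries, 3 each. In the 12 upper genes every orange point lies to the right of the open circles, and in the 10 lower genes to the left. The genes were chosen by the test in these same libraries, which favours such a separation.

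The 10 hosts that fell did so by less, with log2FC from -0.19 to -0.38. Fgf12, a modulator of voltage-gated sodium channels, fell from 77.1, 82.8 and 90.1 CPM to 62.2, 72.1 and 57.1 CPM (log2FC -0.38 ± 0.0867, adjusted p = 0.0205, edgeR). Nrxn3, a presynaptic neurexin, fell from 204, 206 and 234 CPM to 170, 173 and 168 CPM (log2FC -0.34 ± 0.0587, adjusted p = 0.00286). Myt1l, a zinc-finger repressor of non-neuronal genes, fell from 226, 226 and 271 CPM to 197, 201 and 180 CPM (log2FC -0.32 ± 0.0743, adjusted p = 0.0208). In each of these 3 the libraries of the genotypes did not overlap, which their choice by the test in the same libraries favours. Nrxn3 kept its call whichever library was left out. Fgf12 lost it without Kdm1a-ifKO replicate 1 (0.0817) or control replicate 3 (0.0608), and Myt1l without Kdm1a-ifKO replicate 1 (0.0637) or 3 (0.0746), with ranges of 2.18e-07 to 0.116 and 3.82e-06 to 0.168 over all alternatives. Their loops held 6, 13 and 14 PETs at most.

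The other fallen hosts were the adhesion gene Astn2, Arhgap26, the semaphorin receptor gene Plxna2, the AMPA receptor scaffold gene Grip1, Bcas3, Osbpl1a and the cAMP phosphodiesterase gene Pde4b, with log2FC of -0.28, -0.26, -0.25, -0.24, -0.21, -0.20 and -0.19. Their adjusted p lay between 0.0176 and 0.0497 (edgeR), and all 7 lost their calls without Kdm1a-ifKO replicate 1 and without Kdm1a-ifKO replicate 3, with adjusted p of 0.0751 to 0.210 there. Pde4b held the strongest loop of the fallen hosts, 69 PETs (53.7 to 87.3) over 257 kb with both ends in intron 3. It stood at 99.3, 104 and 103 CPM in controls and 86.5, 91.5 and 89.9 CPM in Kdm1a-ifKO. All 10 fallen hosts were longer than 100 kb, with a median body of 496 kb beside 114 kb for the 35 that rose and 195 kb for the 408 tested hosts that were not called. After correction for gene body length none of the 10 passed edgeR's test, with an unadjusted p under 0.05 in 6. Without that correction DESeq2 called 7 of the 10. Summed PETs had a median of 7 in risen, 13.5 in fallen and 10 in other tested hosts.

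Of the 8 called hosts in the listed groups, 2 synaptic adhesion genes, 1 axon guidance gene, 1 ion channel gene, 2 signalling enzymes and 1 transcription factor fell, and 1 cytoskeletal gene rose, beside 6.04% of all tested genes that rose and 2.82% that fell. Their host groups had median log2FC of -0.01, -0.01, -0.09, -0.07, 0.02 and -0.06 over 17, 7, 15, 22, 12 and 26 tested hosts. Over all tested genes of the same lists, hosts or not, the medians were -0.14, -0.07, -0.13, -0.06, -0.03 and -0.12. Of these genes 9 of 82 in synaptic adhesion fell and 2 rose, 8 of 39 in axon guidance fell and 2 rose, and 11 of 67 ion channel genes fell and 2 rose. Among signalling enzymes 6 of 85 fell and 5 rose, among transcription factors 7 of 94 fell and 5 rose, and among cytoskeletal, scaffold and release genes 7 of 75 fell and 2 rose. Most listed genes had at least 100 kb, with 71 of 82 adhesion, 32 of 39 guidance and 53 of 67 ion channel genes. Of 1924 tested protein-coding genes of that length without such a loop, 3.95% rose and 6.96% fell. The part of gene length in the list counts was not tested. The list of CTCF and cohesin genes had 20 tested genes and also holds the transcription factor gene Yy1, which is neither. Of its genes, Yy1 and the cohesin regulator gene Pds5b fell (log2FC -0.27 and -0.36, adjusted p 0.0205 and 0.0199, edgeR) and the meiotic cohesin gene Stag3 rose (0.86, adjusted p = 0.0213). Pds5b stood at 115, 121 and 147 CPM against 99.7, 99.2 and 99.9 CPM. Yy1, Pds5b and Stag3 kept their calls in 3, 4 and 2 of the 6 fits that left out a library, with the highest adjusted p (0.0759, 0.0710 and 0.0783) without Kdm1a-ifKO replicate 1. Stag1, the only host on that list, had 1 loop of 3 PETs.

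Some cell type markers differed between genotypes, beside 6.04% of all tested genes that rose and 2.82% that fell. Of 10 microglial markers 5 rose, with summed levels of 395 to 430 CPM in controls and 451 to 579 CPM in Kdm1a-ifKO, and of 10 astrocyte markers 4 rose (5614 to 6254 against 6278 to 6626 CPM). Of 10 markers of excitatory neurons 3 fell, with summed levels that overlapped (7298 to 7721 against 7119 to 7879 CPM). Of 10 interneuron markers 2 fell (1154 to 1230 against 1103 to 1124 CPM). Of 8 markers of oligodendrocyte precursors 1 rose (340 to 360 against 362 to 405 CPM), and of 5 tested thalamic markers 1 rose (87.4 to 89.6 against 99.8 to 114 CPM). The summed levels of both lists lay above the controls in every Kdm1a-ifKO library. Of 8 markers of ependyma and choroid plexus 1 rose (51.0 to 82.6 against 81.6 to 93.4 CPM), and of 10 endothelial and mural markers 1 rose (413 to 422 against 404 to 524 CPM), with ranges that overlapped. Of 10 oligodendrocyte markers 0 passed the test of edgeR or DESeq2 and 0 had an unadjusted p under 0.05, and their levels overlapped, at 5398 to 5940 against 4995 to 6493 CPM. The part of these cell types in the changes of the hosts, the ciliary gene Nek10 and the endothelial gene Pear1 included, was not tested.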

How the data were processed

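RNA-seq read counts were deposited by the authors, who trimmed single-end poly-A reads with cutadapt 1.18, aligned them to mm10 with HISAT2 2.1.0, filtered on mapping quality and counted genes of Ensembl with HTSeq 0.11.1. The strand setting is not given in the sources used here. The counts are whole numbers without normalization. PET counts per loop were deposited by the authors from ChIA-PIPE on mm10, for loops with at least 3 PETs and a MACS2 peak at both anchors. The depth of the ChIA-PET library before loop calling is unknown, and intervals on PETs cover counting error only.

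Loops were placed in GENCODE M21 records. A loop in 2 genes counted once, with both genes as hosts, and features were read from the shorter one. Of 48795 counted genes 48349 were in GENCODE M21. Genotypes were compared by robust quasi-likelihood tests in edgeR 4.0.16 under R 4.3.3, after filterByExpr and TMM scaling. The model held genotype alone, and p-values were adjusted after Benjamini and Hochberg over the 16799 tested genes. CPM use TMM library sizes, and TPM divide counts by merged exon length. Motifs and sequences were read from GRCm38.p6 (RefSeq) with Python 3.11.15. No sequence of chromosome 18 is shown. Both steps were tested on simulated data.

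Alternatives were DESeq2 1.42.0, its size factors, upper-quartile scaling, other count filters, a replicate block, a correction that removed the loess trend of log2FC on gene body length, each library left out in turn, and other rules for loops. Those without the wide records and without Sfi1 were chosen after seeing the data. Samples with the same replicate number did not deviate together (correlations of -0.05, -0.12 and -0.17), and the labels name no shared litter.

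Members, lists and rules were chosen with earlier results of these data known. Named hosts were those of the 10 loops with most PETs, the 10 with most loops, the 12 largest rises and up to 12 largest falls past an adjusted p of 0.05, called hosts on a gene list, those of the 3 widest loops, the 6 with most PETs summed over loops at internal starts, the 3 highest and 3 lowest in TPM, called genes of the CTCF and cohesin list, and Kdm1a. Other hosts are named as examples of a list, chosen after their values were seen. The other assays of the series were not used here.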

Additional observations from a re-analysis of the deposited data

How the results depend on the processing

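Of 93 alternative values, 69 were classed as close to the main value. Among these the median log2FC of hosts, 0.006, changed sign in some alternatives, to -0.002 or -0.001. The number of hosts that rose was 35 and became 53 with the gene length correction, 23 or 11 for hosts of loops with at least 5 or 10 PETs, and 18 to 34 with a library left out. The number that fell was 10 and became 5 with upper-quartile scaling, 36 without a count filter, 16 with DESeq2, 5 for hosts of loops with at least 10 PETs, 0 with the length correction and 1 to 15 with a library left out. The causes were not tested. With the replicate block 27 rose and 4 fell, and with the block and the length correction 42 and 0. The replicate numbers mark no known pairing, so a call lost under the block is no sign of a weaker effect, and Kdm1a stayed at -1.07 with the block. The median log2FC of hosts, 0.006, became 0.031 with upper-quartile scaling, 0.075 with the length correction and 0.072 with both block and correction, and -0.002 to 0.011 with a library left out. With at least 5 or 10 PETs 617 or 286 loops were left, with medians of 9 and 16 PETs, which follows from that rule. The convergent share of 71.7% became 87.5% with at least 10 PETs and 55.6% with 1 mismatch allowed. The other rules for the loops, without the wide records and without Sfi1 included, left counts within 1.5 times, the median of 5 PETs, and convergent shares inside its interval. No group had 4 or more samples, so no library could be singled out by its gap to the others. The single ChIA-PET library gives no spread between replicates, and 32.9% of the loops rest on 3 PETs.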
